A study of Mus musculus with 473 samples.

Results

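Of 84 quality-passed single cells of the embryonic day 15.5 (E15.5) mouse forebrain (FB), all sorted for a green fluorescent reporter of tyrosine hydroxylase (Th), 27 had the Th transcript at an FPKM of 1 or more and 57 did not. FPKM counts the sequenced fragments of a transcript relative to its length in kilobases and to the size of the library. The 2 groups of cells, called here cells with Th and cells without Th, were chosen by the Th value itself, so the Th difference between them is no result. The labels name every cell a sorted dopaminergic neuron, whereas Th, which defines such cells, was listed at 0 in 57 of them.

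The whole series holds 473 single cells, whose polyadenylated RNA was profiled over the full length of the transcripts by Smart-Seq2. The embryos were E15.5 animals of the Th:EGFP line Tg(Th-EGFP)DJ76Gsat, which carries a bacterial artificial chromosome with enhanced green fluorescent protein (EGFP) under Th regulatory sequences. They came from hemizygous males and wild-type females on the outbred Swiss Webster background. The dissected FB region is the hypothalamus in the labels. Tissue of 4 EGFP-positive embryos was pooled and dissociated with papain, and cells that were EGFP-positive and excluded propidium iodide were sorted into wells. Cells with and without Th therefore share the pool of embryos, the treatment and the sort, and a group is 1 sample. No test was made, every SD is the spread over cells, and no difference below has a replicate check. The 84 cells were spread over library plates TH01_14.15 (43 cells) and TH01_15.14 (41 cells), and the submitters placed 60 in cluster E15.FB.1 and 24 in cluster E15.FB.2. E15.5 midbrain (MB) cells of the same line, 26 with Th and 62 without, and 31 postnatal day 7 (P7) FB cells were used for comparison.

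Dopamine is made from tyrosine by 2 enzymes. Tyrosine hydroxylase, the rate-limiting one, needs the cofactor tetrahydrobiopterin, and aromatic amino acid decarboxylase (Ddc) completes the synthesis. The vesicular transporter Slc18a2 (VMAT2) loads dopamine into vesicles and the plasma membrane transporter Slc6a3 (DAT) takes it back up. In the hypothalamus, groups of Th-expressing neurons include ones that also make GABA, and some express Th without the full set of dopamine genes.

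Th (ENSMUSG00000000214.10) lies on chromosome 7, 142892752 to 142931128, minus strand, of mm10. Its promoter is shown because the reporter used for the sort is under Th regulatory sequences. The 250 bases before the start of Th, chr7:142899996-142900245, minus strand, of GRCm38.p6 (the assembly of mm10) as given by RefSeq, read 5′ to 3′ as follows. The capitals mark TGACGTCA, the palindromic cyclic AMP response element, from 45 to 38 bases before the start.
Th: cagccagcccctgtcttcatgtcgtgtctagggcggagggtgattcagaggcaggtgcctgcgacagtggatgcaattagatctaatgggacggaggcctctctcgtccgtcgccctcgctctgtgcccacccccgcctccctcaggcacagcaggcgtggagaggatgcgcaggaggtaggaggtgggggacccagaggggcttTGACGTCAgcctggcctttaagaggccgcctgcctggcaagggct
Of 32851 RefSeq promoters, 508 (1.55%) hold TGACGTCA, which reads the same on both strands. Counted per gene, as are the genes below, 478 of 27025 (1.77%) had it in at least 1 promoter. None of the 10 matched genes of the dopamine list described below held it. Of the 14 matched immediate early genes, 2 did. A match of letters is a description and not a binding site.

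The Th values of the 84 cells formed 3 levels. Th was listed at exactly 0 in all 57 cells without Th, and no cell lay between 0 and 1, so the threshold of 1 moved no cell. Just above the threshold, 5 cells had Th at 1.18, 1.29, 1.73, 3.41 and 3.81. The other 22 began at 42.6 and reached 2911, with nothing between 3.81 and 42.6. The median over the 27 cells was 267, and 1 cell gave 25.3% of all Th in the group. The 5 low cells all belonged to cluster E15.FB.1, 3 of them on plate TH01_14.15 and 2 on TH01_15.14. How much of a 0 is a transcript that was missed in a cell is not known, because an FPKM table holds no read counts. Values of housekeeping genes were also listed at 0 in 1.59% of the E15.5 FB values checked.

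Cells with Th made up 32.1% of the 84 cells (exact 95% interval 22.4 to 43.2%, counting error only). On plate TH01_14.15 they were 16 of 43 (37.2%) and on TH01_15.14 11 of 41 (26.8%), with overlapping intervals. Cluster E15.FB.1 held 18 of 60 (30%) and cluster E15.FB.2 held 9 of 24 (37.5%), so neither cluster was made of one kind. In E15.5 MB, 26 of 88 cells (29.5%) had Th, with a median of 707 in those cells. In P7 FB, 30 of 31 cells had Th.

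The number of genes detected per cell was slightly lower in cells with Th. Per the labels, cells with Th had a median of 5419 genes (lowest 3204, highest 7681) and cells without Th 5625 (3694 to 7918). The difference of medians was -206 genes, or -3.66%, against an SD over cells of 1136 and 933, and the ranges overlapped almost wholly. The direction was the same on both plates, at -88.5 genes on TH01_14.15 and -610 on TH01_15.14. Within clusters the gap was smaller, at -19.5 genes in E15.FB.1 and -80 in E15.FB.2. Cells with Th were not those with more genes detected: Th was found in 8, 8, 5 and 6 of 21 cells in 4 sets of cells ordered from fewest to most genes detected. The MB cells showed the same direction, at -361 genes.

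**Figure D1:**
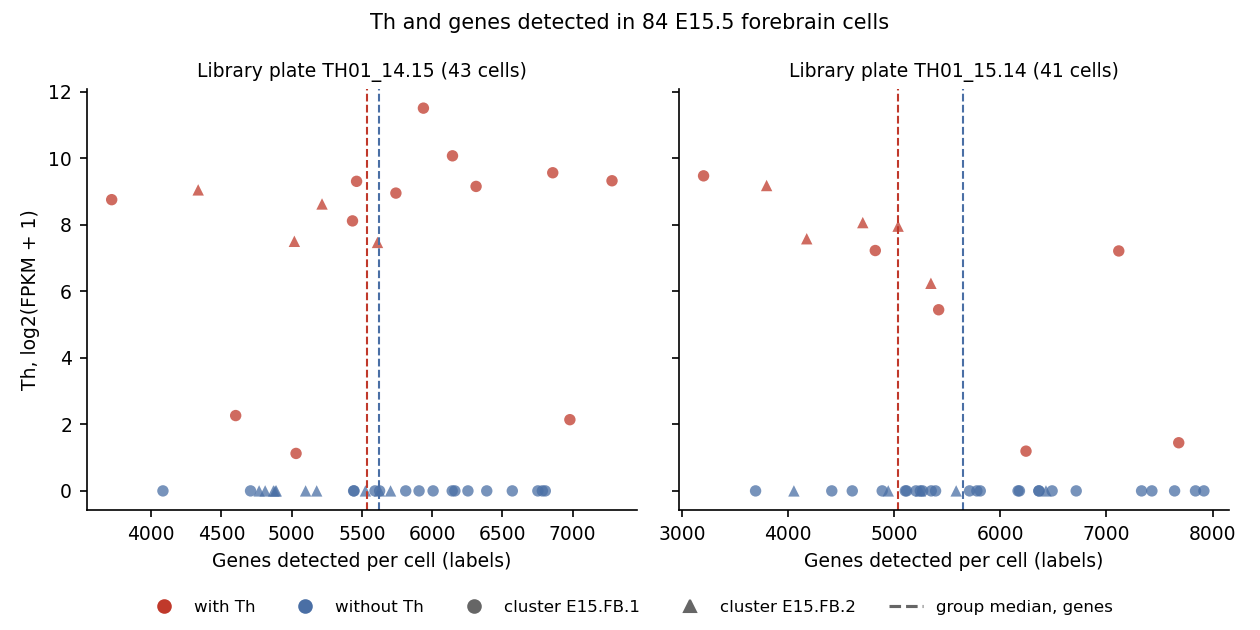
Th as log2(FPKM + 1) against the number of genes detected per cell, 1 point per cell, with 1 panel for each library plate. Colour gives the group, the marker shape the cluster and the dashed lines the group medians of genes detected; cells without Th lie at 0 over the whole width of the x axis, and both panels show the 5 cells with low Th apart from the 22 above 42.6.

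The FPKM total per cell moved the other way. Its median was 1324795 in cells with Th and 956048 in cells without, 38.6% higher. It was higher with Th on both plates, by 18.1% and 47.2%. This shifts all folds upward: over 13366 genes with a mean of at least 1, the median log2 fold of cells with Th over cells without was 0.18. After each cell was rescaled to the same total, that median was -0.0027. Folds are log2((mean + 1)/(mean + 1)), which understates the difference of genes with low values.

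Against this background, 1765 of the 13366 genes (13.2%) had a mean at least 2-fold higher in cells with Th and 1520 (11.4%) at least 2-fold lower. Of the genes past 2-fold, 53.7% were higher as deposited and 41.8% after rescaling (1130 higher, 1573 lower), so the balance of directions depends on the scale. With the same direction required on both plates, 1067 genes (7.98%) were higher and 1137 (8.51%) lower. Many single-cell values are 0, and 656 of the genes were listed at 0 throughout 1 of the groups. A 2-fold difference of means was therefore common, and member counts below are read against these percentages. The plot of plate against plate shows how far the plates went together.

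**Figure D2:**
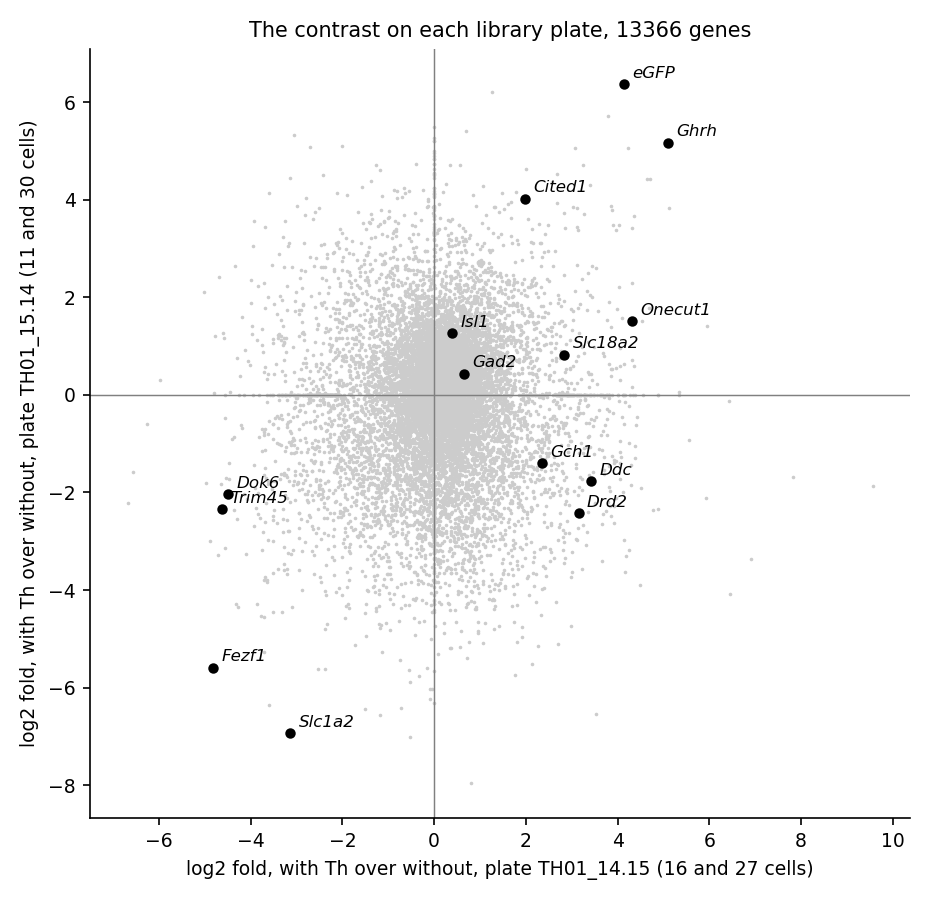
log2 fold of cells with Th over cells without Th on plate TH01_14.15 (x axis) and on plate TH01_15.14 (y axis) for 13366 genes (grey), with genes of the text in black. Ghrh, eGFP and Onecut1 lie at the upper right and Slc1a2 and Fezf1 at the lower left, while Ddc, Drd2 and Gch1 were higher on the first plate and lower on the second.

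The transcript of the reporter itself was found mainly in cells with Th. eGFP was found (FPKM of 1 or more) in 10 of 27 cells with Th (37.0%, interval 19.4 to 57.6%) and in 3 of 57 cells without (5.26%, 1.10 to 14.6%). Its values in the 10 cells ran from 13.7 to 2324 with a median of 339. The 3 cells without Th had 55.4, 145 and 234. The mean was 210 ± 487 (SD over 27 cells) with Th and 7.61 ± 36.7 (57 cells) without, a log2 fold of 4.61. It was higher on both plates, at 4.13 and 6.37. Among cells with Th, those with eGFP had a median Th of 606 and those without eGFP a median of 181. None of the 5 cells with Th below 10 had eGFP, nor did the cell with the highest Th. All cells had passed the gate for EGFP fluorescence, so 71 of 84 sorted cells had the protein signal with no eGFP transcript listed at 1 or more. In MB, 14 of 26 cells with Th and 3 of 62 without had eGFP.

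Of the dopamine list (12 genes for synthesis, cofactor, storage, reuptake, autoreceptor and breakdown, Th left out), 11 were above the minimum of 1. Of these, 5 were at least 2-fold higher in cells with Th and 1 was lower, beside 13.2% and 11.4% of all genes. The list median was 0.90 as log2 fold against 0.18 over all genes. With the same direction on both plates, 1 of the 5 was left, Slc18a2. The list median was 0.22 on plate TH01_14.15 and -0.71 on TH01_15.14, and 0.10 when the highest cell of each gene was left out in both groups.

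Ddc (chromosome 11, 11814101 to 11898144, minus strand), the decarboxylase, was found in 15 of 27 cells with Th (55.6%, interval 35.3 to 74.5%) and 11 of 57 without (19.3%, 10.0 to 31.9%). In the cells that had it, the values ran from 13.8 through a median of 123 to 4286 with Th, and from 22.5 through 103 to 767 without. The mean was 367 ± 1019 against 46.2 ± 144, a log2 fold of 2.96. The levels in cells that had Ddc overlapped, and the groups differed in how many cells had it. That difference was on 1 plate alone: 13 of 16 cells with Th against 6 of 27 without on TH01_14.15, but 2 of 11 against 5 of 30 on TH01_15.14. The folds on the plates were 3.43 and -1.77.

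Slc18a2 (chromosome 19, 59260896 to 59296012, plus strand), the vesicular transporter, was found in 12 of 27 cells with Th (44.4%) and 16 of 57 without (28.1%), with overlapping intervals. The values in those cells ran from 1.44 through a median of 43.1 to 539 with Th, and from 1.71 through 16.7 to 103 without. The mean was 62.7 ± 145 against 8.37 ± 21.7, a log2 fold of 2.76. It was higher on both plates (2.84 and 0.82), though on TH01_15.14 the share was 3 of 11 with Th against 9 of 30 without.

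The remaining members were rare or near level. Slc6a3, the reuptake transporter, was found in 2 cells with Th and 1 without. Gch1, which starts cofactor synthesis, was found in 1 and 2 cells. Drd2, the D2 dopamine receptor, was found in 3 cells of each group. Maob, a monoamine oxidase, was found in 1 cell with Th and listed at 0 in all cells without. Each of these folds rests on 1 to 3 cells. Qdpr, which recycles the cofactor, was found in 20 of 27 and 33 of 57 cells with means of 117 ± 128 and 115 ± 189. Pts, another enzyme of cofactor synthesis, had a log2 fold of 0.66 and Maoa, a monoamine oxidase, 0.90. Spr and Pcbd1, of cofactor synthesis and recycling, were found in 2 cells with Th each, against 9 and 11 without.

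Few cells held the dopamine genes together. These combinations were chosen after the values had been seen. Ddc and Slc18a2 were found in the same cell in 9 of 27 cells with Th (33.3%) and 6 of 57 without (10.5%). Neither was found in 9 of 27 (33.3%) and 36 of 57 (63.2%). Ddc, Slc18a2 and Slc6a3 were all found in 2 cells with Th and in 0 of 57 without, which allows a share of up to 6.27% of cells by the exact interval. In MB, the same 3 genes were together in 9 of 26 cells with Th and 2 of 62 without.

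**Figure D3:**
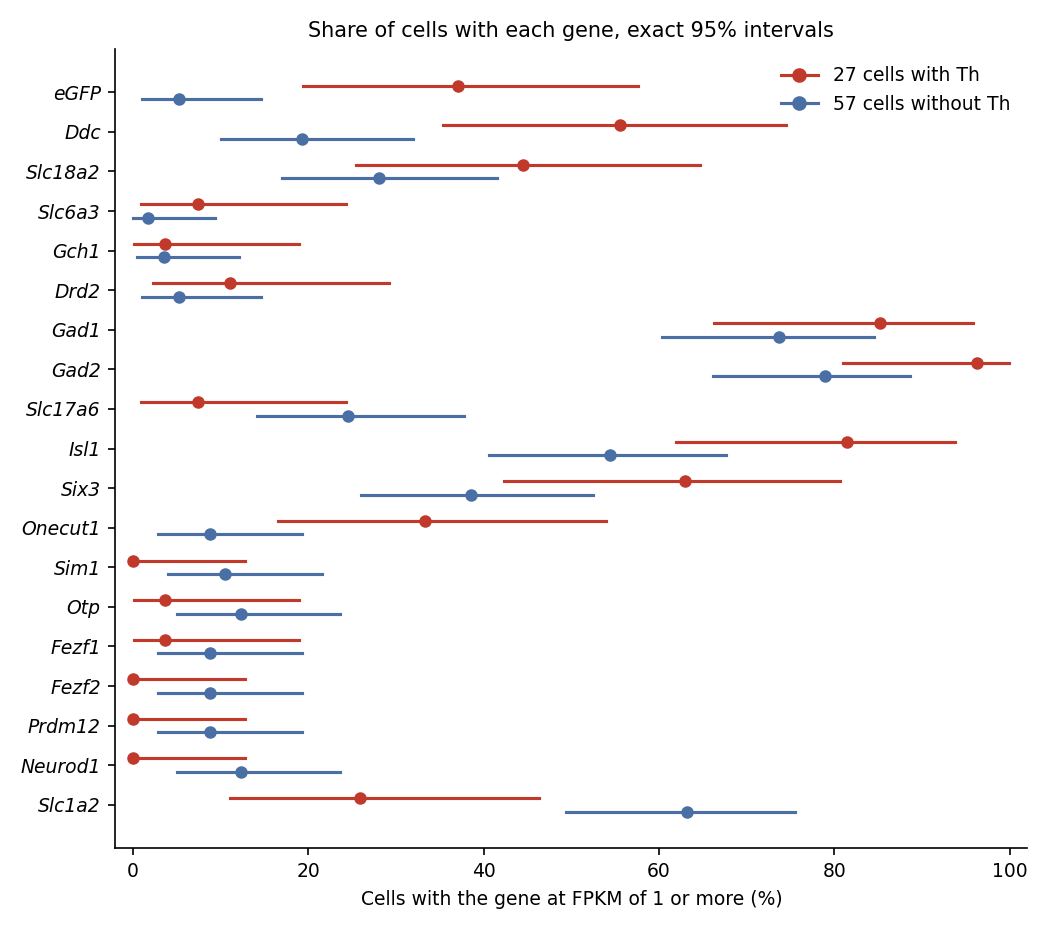
Share of cells with each gene (FPKM at least 1) among the 27 cells with Th and the 57 without, as points with exact 95% intervals that cover counting error only. eGFP, Ddc and Slc1a2 show intervals that do not overlap, and the intervals of the other 16 genes overlap. The 19 genes were picked for the plot, and the same count over all genes was not made, so this count has no background.

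The shares of cells with transmitter genes also differed between the groups. Gad1 and Gad2 make GABA, and Slc17a6 (VGLUT2) loads glutamate into vesicles. Gad1 or Gad2 was found in 27 of 27 cells with Th (interval 87.2 to 100%) and in 45 of 57 without (78.9%, 66.1 to 88.6%). Slc17a6 was found in 2 of 27 (7.41%) and 14 of 57 (24.6%). Slc17a6 with no Gad1 or Gad2 was seen in 0 of 27 cells with Th (up to 12.8%) and in 11 of 57 without (19.3%, 10.0 to 31.9%). The intervals of the groups overlapped for each of these shares. The count of 0 rests on 1 cell with Th at 3.41, which had Gad1 at 1.95, Gad2 at 0 and Slc17a6 at 331, and so counts among the cells with Gad1 or Gad2. Those 11 cells were all of cluster E15.FB.1, 5 on plate TH01_14.15 and 6 on TH01_15.14. The last cell without Th had none of the 3 genes. These classes, too, were drawn up after the values had been seen.

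Of the 5 GABA genes 0 were past 2-fold, and the list median was 0.59. That median was 0.34 after rescaling, 0.89 at Th thresholds of 5 and 10, 0.83 without the 5 cells of lowest Th and 1.12 as a difference of means of log2(FPKM + 1). Gad1 had a mean of 390 ± 389 with Th and 260 ± 372 without (log2 fold 0.59), and Gad2 238 ± 180 and 160 ± 269 (0.58). Abat, which breaks GABA down, had 0.61. Slc32a1, the vesicular GABA transporter, was found in 13 of 27 and 28 of 57 cells.

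**Figure D4:**
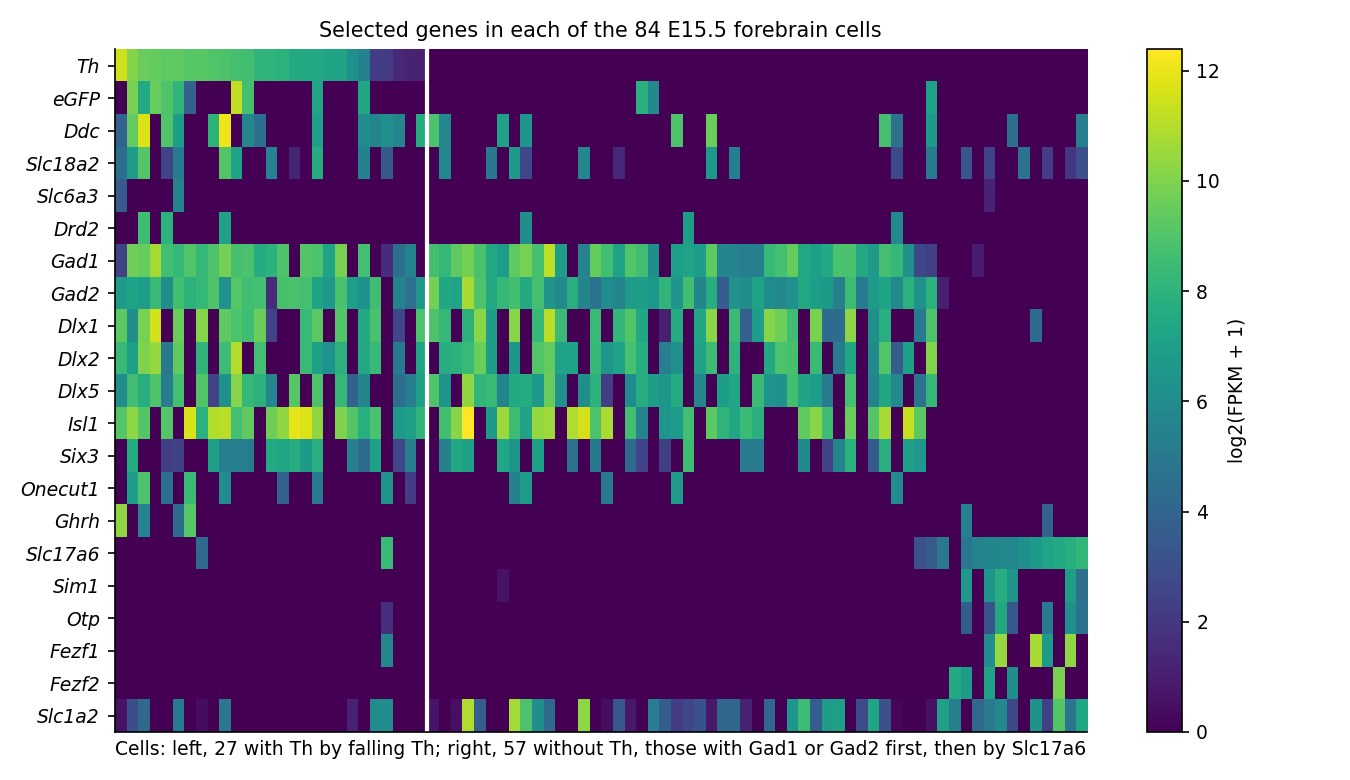
log2(FPKM + 1) of selected genes (rows) in each of the 84 cells (columns), with the 27 cells with Th to the left of the white line in order of falling Th. In the 57 cells to the right, the cells without Gad1 and Gad2 come last, and Slc17a6, Sim1, Otp, Fezf1 and Fezf2 are seen mainly there, where Dlx and Isl1 are nearly all at 0.

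Among transcription factors, Isl1 (chromosome 13, 116298281 to 116309689, minus strand), a LIM homeodomain factor of several hypothalamic neuron types, was found in 22 of 27 cells with Th (81.5%, interval 61.9 to 93.7%) and 31 of 57 without (54.4%, 40.7 to 67.6%). The share was larger with Th on both plates, 13 of 16 against 15 of 27 and 9 of 11 against 16 of 30, and the intervals overlapped over all cells and on each plate. All 53 cells with Isl1 also had Gad1 or Gad2. Its values in those cells ran from 115 through a median of 602 to 3883 with Th and from 46.1 through 546 to 5369 without, so the levels overlapped and the log2 fold was 0.79. All 24 cells of cluster E15.FB.2 had it, and the difference in shares was within E15.FB.1 (13 of 18 against 16 of 42). Six3, a forebrain homeobox factor, was found in 17 of 27 and 22 of 57 cells, in E15.FB.1 in 9 of 18 and 8 of 42, again with overlapping intervals.

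The Dlx genes, homeobox factors of forebrain GABA neurons, had higher means but did not reach 2-fold. Dlx1 had a log2 fold of 0.69, Dlx2 0.96 and Dlx5 0.66. In the list of 18 such factors, 16 were above the minimum, 2 were at least 2-fold higher and 0 lower, and the median was 0.47. The member with the same direction on both plates was Etv1, an ETS factor found in 6 cells of each group (log2 fold 1.75), of which 1 cell gave 46.6% of the total with Th and 1 gave 49.9% without.

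Onecut1 (chromosome 9, 74861921 to 74891781, plus strand), a cut-homeodomain factor, had the highest log2 fold of the 20 hypothalamic transcription factors above the minimum. It was found in 9 of 27 cells with Th (33.3%, interval 16.5 to 53.96%) and 5 of 57 without (8.77%, 2.91 to 19.3%). With Th it ran from 3.79 through a median of 67.3 to 488, and without from 32.7 through 66.96 to 114. The mean was 43.6 ± 113 against 6.48 ± 23.4, a log2 fold of 2.58 (4.32 and 1.52 on the plates). Its relative Onecut2 had 1.86, in 9 of 27 and 14 of 57 cells. Of the 20 factors, 4 were at least 2-fold higher and 7 lower, and all 7 were lower on both plates. The list median was -0.13.

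The 7 lower factors were Sim1, Otp, Lhx5, Lhx8, Fezf1, Fezf2 and Prdm12. Sim1 and Otp, which specify neuroendocrine neurons of the hypothalamus, were found in 0 and 1 cells with Th and in 6 and 7 without. Fezf1 and Fezf2, zinc finger factors of the early forebrain, were found in 1 and 0 cells with Th and 5 of 57 without each. Prdm12 was listed at 0 in all cells with Th and found in 5 without. At least 1 of Sim1, Otp, Fezf1 and Fezf2 was found in 1 of 27 cells with Th (3.70%) and 10 of 57 without (17.5%), and 9 of those 10 had Slc17a6. The 1 cell with Th was among the 5 with low Th, and it had Slc17a6 as well. Neurod1 and Neurod2, basic helix-loop-helix factors of neuronal differentiation, were listed at 0 in all cells with Th and found in 7 and 6 without.

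The comparison was repeated on cells with Gad1 or Gad2 alone, 27 with Th and 45 without. eGFP was then found in 37.0% with Th and 6.67% without, Ddc in 55.6% and 20.0%, and Slc18a2 in 44.4% and 22.2%. Onecut1 was found in 33.3% and 11.1%. Isl1 came closer, at 81.5% and 68.9%, and Six3 at 62.96% and 48.9%. At least 1 of Dlx1, Dlx2, Dlx5 and Dlx6 was found in 88.9% with Th and 95.6% without, against 88.9% and 77.2% over all cells. None of Sim1, Otp, Fezf1 and Fezf2 was found in the 45 cells without Th that had Gad1 or Gad2. This subset was chosen after the values had been seen.

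Neuropeptides were found in about the same share of cells, with at least 1 peptide of the list in 21 of 27 cells with Th (77.8%) and 43 of 57 without (75.4%). Which peptide differed. Ghrh, growth hormone-releasing hormone of arcuate neurons, was found in 4 of 27 cells with Th at 19.9, 43.8, 576 and 1306, and in 2 of 57 without at 14.4 and 40.9. The intervals of these shares overlapped (4.19 to 33.7% and 0.43 to 12.1%). Its mean was 72.04 ± 270 against 0.97 ± 5.72, a log2 fold of 5.21 (5.10 and 5.17 on the plates). In cells with Th, 1 cell gave 67.1% of the total. No cell without Th that had Gad1 or Gad2 had Ghrh. At P7, Ghrh was found in 15 of 31 FB cells.

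Of 18 peptides above the minimum, 3 were at least 2-fold higher in cells with Th and 9 lower (6 of them on both plates), and the list median was -1.21. Much of this came from single cells. Pomc, the precursor of melanocortins, was found in 2 and 5 cells, and 98.9% of its total in cells without Th came from 1 cell at 10263. Avp (vasopressin) and Cck (cholecystokinin) were listed at 0 in cells with Th, and 99.2% and 97.2% of their totals without Th came from 1 cell each. Without the highest cell of each gene in both groups the list median was -0.32. Cartpt, another arcuate peptide, was found in 1 and 6 cells. Npy, a feeding peptide, was found in a larger share of cells with Th, 7 of 27 against 9 of 57, although its mean was lower (188 ± 627 against 503 ± 2364). In the list of hypothalamic hormone receptors, 11 genes were above the minimum. Of these, 4 were at least 2-fold higher (36.4%, beside 13.2% of all genes) and 1 was lower. The list median was 0.60 (0.80 and -0.09 on the plates). Npy2r, a peptide receptor, was found in 4 of 27 and 2 of 57 cells with a log2 fold of 3.31. Asb4, an arcuate gene, was found in 9 of 27 and 9 of 57.

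Genes were ranked by fold if they had a mean of at least 10 and the same direction on both plates. They also had to be found in at least 30% of the cells of the higher group. The 12 with the highest fold were Slc18a2, Gnpda1, Cited1, Onecut1, Haus1, Lyar, Tpd52l1, Rnf113a1, Rhobtb1, Bmp1, Mcph1 and Tpmt, at log2 folds from 2.23 to 2.76. Agreement of the plates and of the means of logs was thus a condition of the choice and not a result. A larger share of cells in the higher group was also favoured, because the share was required in that group alone. Cited1, a transcriptional co-activator, was found in 10 of 27 cells with Th (37.0%, interval 19.4 to 57.6%) and 5 of 57 without (8.77%). Its values ran from 19.1 through a median of 141 to 842 with Th, and from 8.46 through 75.7 to 416 without. The log2 fold was 2.65 (1.97 and 4.03 on the plates). Cited1 was found in 7 of 16 against 2 of 27 cells and in 3 of 11 against 3 of 30. Gnpda1, which acts on glucosamine 6-phosphate, was found in 10 cells of each group and had 2.74. Bmp1, a procollagen protease, was found in 15 of 27 and 16 of 57 cells (2.41), and Lyar, a nucleolar protein, in 14 of 27 and 14 of 57 (2.49).

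The 12 lowest included Slc1a2, Trim45, Dok6, Yif1a, Cdkn1a, Mgat4c, Galk1, Nme3, Vps13d, Gng7 and Ankhd1, at -3.86 to -2.21. Their choice by the same rule again fixed the direction on both plates and favoured a larger share in cells without Th. Slc1a2 (chromosome 2, 102658659 to 102790784, plus strand), the glutamate transporter GLT-1, which is best known from astrocytes, had the lowest fold. It was found in 7 of 27 cells with Th (25.9%, interval 11.1 to 46.3%) and 36 of 57 without (63.2%, 49.3 to 75.6%). With Th the values in those cells ran from 1.16 through a median of 29.4 to 65.7, and without from 1.22 through 30.7 to 1908, so 14 cells without Th lay above the highest cell with Th, while the medians of the cells that had it were close. The mean was 8.15 ± 18.5 against 132 ± 371, a log2 fold of -3.86 (-3.14 and -6.94). The shares were 6 of 16 against 15 of 27 on TH01_14.15 and 1 of 11 against 21 of 30 on TH01_15.14. Among cells with Gad1 or Gad2 they were 25.9% and 57.8%.

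Of 7 astrocyte genes, Slc1a2 included, 4 were above the minimum. Of these 0 were at least 2-fold higher and 2 lower, Slc1a2 and Gja1, both in that direction on both plates, and the list median was -1.77 (-2.58 and -3.20 on the plates; -0.59 without Gja1, which was listed at 0 with Th). The part of astrocyte RNA in the difference in Slc1a2 was not tested. Gfap and Aldh1l1 were listed at 0 in all 84 cells, Aqp4 was found in 1 cell without Th, Gja1 in 2 cells without Th, S100b in 2 cells with Th and 1 without, and Aldoc in 2 with and 6 without. In MB the direction of Slc1a2 was the opposite as a mean (log2 fold 1.27), with shares of 15 of 26 and 43 of 62. Trim45, a ubiquitin ligase, was found in 2 of 27 and 18 of 57 cells (-3.53). Dok6, an adaptor of receptor tyrosine kinases, was found in 6 of 27 and 23 of 57 (-2.80), and Cdkn1a, the cyclin-dependent kinase inhibitor p21, in 4 of 27 and 21 of 57 (-2.48). The shares among genes at large leaned the same way: 55.4% of the 13366 genes were found in a smaller share of the cells with Th and 41.5% in a larger one.

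Of 38 voltage-gated and leak channels above the minimum, 8 were at least 2-fold higher and 7 lower, with a median of 0.08. Of 33 transmitter receptors, 5 were higher and 4 lower (0.06), and of 53 axon guidance and adhesion genes 2 were higher and 8 lower (0.09). After rescaling, 3 channels were higher and 8 lower, 2 receptors higher and 4 lower, and 0 guidance genes higher and 7 lower. Of all 13366 genes, 1130 were higher and 1573 lower after rescaling. Without each gene's highest cell, 0 guidance genes were higher and 11 lower, beside 1005 and 1810 of all 13366 genes. Scn9a, a sodium channel, had one of the more broadly found differences, in 18 of 27 and 35 of 57 cells with means of 24.7 ± 32.7 and 8.51 ± 12.2 (log2 fold 1.43; 2.03 and 1.09 on the plates). Nrcam, a neuronal adhesion molecule, was found in 25 of 27 and 50 of 57 cells (1.07; 1.00 and 1.26). Chrna3, a nicotinic receptor subunit, had 1.20. On the lower side, Epha3, an ephrin receptor, was found in 2 of 27 and 14 of 57 cells (-3.26), Sema5a, a semaphorin, in 2 of 27 and 8 of 57 (-3.17), and Glra2, a glycine receptor subunit, in 8 of 27 and 29 of 57 (-1.15). Kcnj6, a potassium channel, was listed at 0 in all cells with Th and found in 4 without.

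Of 15 immediate early genes, which are switched on quickly by neuronal activity, 8 were at least 2-fold higher in cells with Th and 0 lower, and the median was 1.40. The count and median over all 27 cells with Th rest on 1 cell, the one with the highest Th (2911). It lies on plate TH01_14.15 and in cluster E15.FB.1. It had the highest value of all 84 cells for 11 of the 15 genes, among them Nr4a1 at 5200, Ier2 at 3174 and Egr1 at 2992. Without it, 0 of the 15 genes were at least 2-fold higher, 0 lower, and the median was 0.43. On plate TH01_15.14 alone, which does not hold this cell, 5 of the 15 were at least 2-fold higher, beside 2277 of 13366 genes. The list median there was 0.39. The shares of cells with these genes were close, for example 8 of 27 and 18 of 57 for Nr4a1 and 16 of 27 and 27 of 57 for Egr1. The cell was singled out because of these values.

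**Figure D5:**
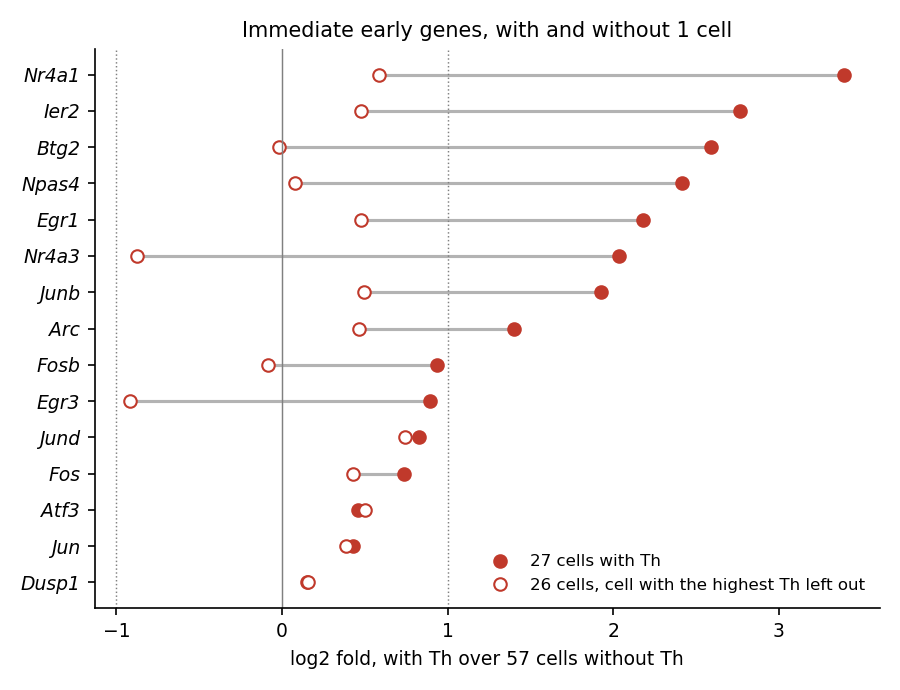
log2 fold of cells with Th over the 57 cells without Th for 15 immediate early genes, with all 27 cells with Th (filled) and without the cell of highest Th (open). The dotted lines mark 2-fold; 8 filled points and no open point lie beyond the right one.

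Genes of neurons in general were nearly level. Dcx, a microtubule protein of migrating neurons, and Tubb3, neuronal tubulin, were found in all 84 cells, at log2 folds of 0.45 and 0.11. Of 22 immature neuron genes above the minimum 0 were higher and 3 lower (median 0.13), the lower ones being the Neurod family named above and its member Neurod6. Of 27 synaptic vesicle genes 0 were higher and 1 lower (0.09). Of 24 oxidative phosphorylation, 22 ribosomal protein and 8 housekeeping genes, none was past 2-fold, with medians of 0.21, 0.11 and 0.14, beside 0.18 over all genes.

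For other cell types, beside the astrocyte genes given above, all 5 noradrenergic genes were listed at 0 in all 84 cells. Of 8 microglial, 8 endothelial and pericyte and 4 serotonergic genes, none reached a mean of 1. Of 6 blood genes 4 did, of which 1 was at least 2-fold higher and 1 lower. The globins Hbb-bs and Hba-a1 were found in 5 and 4 cells with Th and in 9 and 10 without. Of 8 oligodendrocyte lineage genes 3 reached it, with 0 higher and 1 lower. The part of such RNA in the differences above was not tested.

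Of 16 midbrain dopaminergic identity genes 6 were above the minimum. Of these 2 were at least 2-fold higher (33.3%, beside 13.2% of all genes) and 1 lower, none of them in that direction on both plates. The list median was 0.57 (1.19 and -0.48 on the plates), and 5 of the 6 were found in a larger share of the cells with Th. The higher ones were Aldh1a1, found in 2 cells with Th and listed at 0 without, and Ret, a receptor of glial-derived growth factors, found in 5 cells of each group (1.04). The lower one was Nr4a2, a nuclear receptor of midbrain dopamine neurons, found in 3 and 6 cells (-1.68). En1, En2 and Foxa2 were listed at 0 in all 84 cells, and Pitx3 was found in 1 cell with Th.

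In MB the same contrast gave 2085 of 13451 genes (15.5%) at least 2-fold higher with Th and 1196 (8.89%) lower, or 10.9% and 6.89% with the same direction on both plates. Of the 11 dopamine list genes above the minimum in FB, 7 were higher in MB and 0 lower, with a median of 1.19. Slc6a3, below that minimum in FB, is not among these. Ddc had a log2 fold of 4.68 in MB beside 2.96 in FB, Slc18a2 4.37 beside 2.76, Slc6a3 7.998 beside 1.60 and Drd2 4.37 beside 2.44. Gad1 or Gad2 was found in 9 of 26 MB cells with Th and 12 of 62 without. The differences between FB and MB were not tested, since each is 1 pool.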

How the data were processed

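The deposited table holds FPKM values; per the submitters' processing notes, HISAT2, Cuffnorm and mm10 were used to make them; versions and annotation are not given in the sources used here. Cells were grouped by age, region, quality verdict, plate and cluster in the labels and by Th at FPKM of 1 or more. FPKM is not a count, so the depth per cell is unknown and the genes detected in the labels stand in for it; these matched the columns on both E15.5 plates (r of 0.996 and 0.999) and 1 P7 plate, and 190 cells on 2 other P7 plates that did not match were not used. Of 28952 features, 28637 were given a symbol through GENCODE M21 (GRCm38, the assembly of mm10), and 14 shared a symbol. No columns of E15.5 FB cells were identical. Libraries had 20 preamplification and 14 enrichment cycles.

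Mean FPKM over cells was compared as log2((mean + 1)/(mean + 1)) for genes with a mean of at least 1, with Python 3.11.15, pandas 2.3.3 and scipy 1.17.1, and the fold was tested on simulated data. Genes named by rule were Th and eGFP, the dopamine list, and the 12 highest and 12 lowest genes. Other members of the 31 lists were added if past 2-fold in the same direction on both plates, with a mean of at least 5. Further list members are named in the text beside these. The members and lists were chosen with earlier results of these data known. Alternatives changed the Th threshold, pseudocount, filter, scaling, plates, clusters and genes detected. Some members of the lists are not reported here by name.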

Additional observations from a re-analysis of the deposited data

Results flagged for a closer look

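Of the 93 E15.5 FB cells sorted, 9 did not pass the authors' quality control and entered no comparison, and 2 of these had Th, at 303 and 6113, with 3050 and 137 genes detected. eGFP was listed at 0 in both. The value of 6113 lies above that of every passed E15.5 FB cell (highest 2911).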

How the results depend on the processing

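The share of cells with Th stayed within its main interval at thresholds of any value above 0, 5, 10 and 100, with failed cells added and on each plate. The gap in genes detected stayed negative under every alternative run and was -610 on TH01_15.14. Genes at least 2-fold higher (1765) numbered 939 with a pseudocount of 5, 526 as means of log2(FPKM + 1), 770 with a mean of at least 10, 1130 rescaled, 1005 without each gene's highest cell and 3551 in cluster E15.FB.2. Genes lower (1520) numbered 489, 554 and 404 under the first 3 of these, 2967 on TH01_15.14 and 2475 in cells below the median number of genes. The dopamine median (0.90) was 0.10 without each gene's highest cell, 0.22 on TH01_14.15, -0.71 on TH01_15.14 and 0 (0.00) in cells with fewer genes and in E15.FB.2. Immediate early genes higher (8) numbered 1 as means of logs and in E15.FB.2, 5 on TH01_15.14 and in cells with fewer genes, and 0 without each gene's highest cell or without the cell of highest Th.

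Of 79 named genes past 2-fold, 63 kept their direction under every alternative run and 16 turned under at least 1. These counts are not a full measure of stability. Other genes named in the text, such as Onecut2, Ret and Nr4a2, are not among the 79. Apart from eGFP and the dopamine list, the 79 genes were picked only with the same direction on both plates. The runs on each plate alone could therefore turn none of those genes. The run with a Th threshold of 0 moved no cell and could turn no gene. On TH01_15.14 alone Ddc was -1.77, Gch1 -1.40 and Drd2 -2.43, and on TH01_14.15 alone Pcbd1 was 0.22. In cells below the median number of genes Ddc was -0.28, Drd2 -2.53, Tpmt -3.14, Lhx8 0.53, Sv2b 0.46 and Adra1b -1.43, and at or above it Npy was 0.17. As means of logs Npy was 0.47 and Sv2b 0.20. Without its highest cells Gch1 was -0.74. In E15.FB.1 Pomc was 0.081 and Scn8a -0.041. In E15.FB.2, with 9 and 15 cells, Drd2 was -3.21, Ccna2 1.12, Sox2 -0.996, Cacna1a 0.78, Kcnj3 -3.77, Adra1b -1.98 and Npas4 -1.38. At Th thresholds of 5 and 10 Adra1b was -0.21. The cause was not tested. The subset with Gad1 or Gad2 and the 2 sets of cells left out (5 with low Th; the highest) were chosen after seeing the data. No paired analysis was possible because the labels give no replicate numbers that pair cells with and without Th. The number of cells and the unknown depth limit every value: 1 cell is 3.70% of the cells with Th.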

Other observations

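Cell cycle genes were sparse in both groups. Cdk1 was listed at 0 in all 84 cells, and Mki67 and Top2a were each found in 1 cell without Th. Pcna, which also serves DNA repair, was found in 14 of 27 cells with Th and 41 of 57 without, with means of 70.5 and 61.4. Of 11 cell cycle genes above the minimum 2 were at least 2-fold higher and 2 lower, none of the higher ones in the same direction on both plates. Of 10 progenitor and radial glia genes 3 were higher and 2 lower. Sox2, a progenitor factor, was found in 5 of 27 and 10 of 57 cells.

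Olig1, Olig2 and Sox10, markers of the oligodendrocyte lineage, were listed at 0 in all 84 cells. Of 15 genes of peptide processing and dense-core vesicles 1 was higher, Vgf (1.00), and 2 were lower.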
